A study of Homo sapiens with 6 samples.

Results

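The genes described here encode core components of the PI3K, AKT and mTOR pathway: RHEB, MTOR, RPTOR, RICTOR, TSC1, TSC2, AKT1, PIK3CA and PIK3R1. These 9 genes were chosen by name, and each was represented by the probe set annotated with that gene symbol alone that had the highest mean signal over the arrays. A total of 8 had such a probe set, of 14232 genes with one on the arrays. PIK3CA, the gene of the p110-alpha catalytic subunit, counts as not measured under that rule and was not analysed here. The only values the rule used are mean signals, and for each of the 8 measured genes it had 1 candidate probe set to choose from. The genes were proposed with earlier comparisons of the same arrays known, so a difference in 1 of them is a description and not a test of a forecast.

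Phosphoinositide 3-kinase (PI3K), activated by receptors for insulin, IGF1 and other growth factors, makes a membrane lipid that recruits the kinase AKT. AKT inhibits the complex of TSC1 and TSC2, which otherwise switches off the small GTPase RHEB, and GTP-bound RHEB activates the kinase mTOR in complex 1, a promoter of protein synthesis and growth. In oligodendrocytes this route is known to bear on differentiation and on the amount of myelin made. It is controlled largely by phosphorylation, GTP loading and protein location, which transcript arrays do not read. Klotho, a membrane and circulating protein known as the co-receptor for the hormone FGF23, is also reported to restrain signalling by insulin and IGF1, of which these genes are a main branch.

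The cells were MO3.13, a human line that the labels call an oligodendroglioma line and that is otherwise described as a hybrid of human oligodendrocytes and a rhabdomyosarcoma line. Klotho-treated cells (3 arrays) were exposed for 3.5 h to 0.4 µg/mL of mouse Klotho, made as a recombinant protein, in DMEM free of serum, and control cells (3 arrays) carry the label control with no other agent named. Both groups were grown in DMEM with 10% fetal bovine serum, penicillin, streptomycin, L-glutamine and sodium pyruvate. Medium without serum is named only for the Klotho-treated cells, so Klotho and the withdrawal of serum cannot be told apart, which matters for a pathway that answers serum. No label says that the arrays of 1 group were separate cultures, so the p-values here reflect only the spread among these samples, possibly a technical one.

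Each array gave 22011 log2 signals, with array medians between 6.36 and 6.41 in Klotho-treated cells and between 6.38 and 6.47 in control cells, and the arrays correlated pairwise at r = 0.985 to 0.991. Of 10 measured oligodendrocyte markers, 3 (MOG, UGT8 and OPALIN) had a mean signal under 4.70, the lower quartile over all probe sets, and the brightest, CNP, averaged 8.81 in Klotho-treated and 8.83 in control cells; MYRF, a transcription factor of the oligodendrocyte lineage, averaged 6.02 in Klotho-treated and 6.09 in control cells. Of 11 measured skeletal muscle markers 1 (MYF5) lay below that quartile, and the brightest, the acetylcholine receptor gene CHRNA1 and the cardiac actin gene ACTC1, averaged 11.68 and 11.58 in Klotho-treated and 11.67 and 11.64 in control cells. Muscle transcripts thus read brightly in a line labelled as oligodendroglial. Markers of astrocytes (3 of 6 measured below the quartile; SLC1A3 7.06 in Klotho-treated and 7.14 in control cells, GFAP 5.74 in Klotho-treated and 5.85 in control cells) and neurons (1 of 5; SYT1 4.81 and NEFL 4.82 in Klotho-treated, 4.89 and 4.80 in control cells) were also measured.

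The comparison of Klotho-treated with control cells asked whether the transcripts of these components differ after 3.5 h. RHEB read higher on every treated array than on any control array, as did 2.59% of all genes. Its means differed by 0.49 on the log2 scale. The other 7 genes all had lower means in treated cells, by 0.04 to 0.21, as did 62.6% of all genes. AKT1, RPTOR and TSC2 read lower on every treated array than on any control array, as did 5.3% of all genes. Under 3 other scalings of the arrays the groups overlapped for RPTOR and TSC2. None of the differences of the 8 genes passed the test: 0 of them, and 0 of 22011 probe sets (0%), had an adjusted p under 0.05 (limma, Benjamini-Hochberg over all probe sets). At an unadjusted p under 0.05 there were 703 probe sets (3.19%) and 1 of the 8 genes, RHEB, against 2.07% of all genes in either direction and 0.963% in the higher direction.

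For the 4 genes whose groups did not overlap as deposited, the 250 bases before their start in RefSeq are shown here (GRCh38.p14, 5′ to 3′ on the gene's strand). They were picked by their values on these arrays, 1 higher and 3 lower, and none passed the adjusted threshold. Their windows are a description only. Where RefSeq lists several starts, the outermost is printed. Capitals mark matches on either strand to 4 motifs: CACGTG, the E-box core of the element through which TFEB acts, a factor restrained by mTOR complex 1; GTAAACA, the element of forkhead factors such as the AKT-restrained FOXO proteins; GGGCGG, the GC box; and CCGGAAG, bound by ETS factors. Adjacent GC boxes overlap where the capitals run past the motif's length.
RHEB promoter, chr7:151519896-151520145 (- strand): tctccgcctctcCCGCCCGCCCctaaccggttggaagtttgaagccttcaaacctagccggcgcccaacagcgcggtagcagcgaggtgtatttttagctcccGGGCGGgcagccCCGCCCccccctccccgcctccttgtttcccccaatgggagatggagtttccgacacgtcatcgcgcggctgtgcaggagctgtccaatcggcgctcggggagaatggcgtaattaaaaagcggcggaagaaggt
AKT1 promoter, chr14:104795749-104795998 (- strand): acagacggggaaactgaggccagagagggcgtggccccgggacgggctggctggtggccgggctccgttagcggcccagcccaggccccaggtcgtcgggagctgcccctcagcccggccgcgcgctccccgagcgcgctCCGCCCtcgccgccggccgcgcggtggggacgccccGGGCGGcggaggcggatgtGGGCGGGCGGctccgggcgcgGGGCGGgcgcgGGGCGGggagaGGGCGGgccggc
TSC2 promoter, chr16:2047735-2047984 (+ strand): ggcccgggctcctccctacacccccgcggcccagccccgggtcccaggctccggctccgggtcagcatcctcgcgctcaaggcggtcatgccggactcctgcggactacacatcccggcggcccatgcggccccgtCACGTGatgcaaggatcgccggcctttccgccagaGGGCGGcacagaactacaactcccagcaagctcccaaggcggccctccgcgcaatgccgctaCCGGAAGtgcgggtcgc
RPTOR promoter, chr17:80544588-80544837 (+ strand): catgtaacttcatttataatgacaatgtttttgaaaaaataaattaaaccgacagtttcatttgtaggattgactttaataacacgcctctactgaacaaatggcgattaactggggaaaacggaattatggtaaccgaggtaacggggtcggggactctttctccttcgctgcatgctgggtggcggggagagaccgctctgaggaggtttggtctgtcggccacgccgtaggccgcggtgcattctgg

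The RHEB window held 4 GC boxes, the AKT1 window 7 and the TSC2 window 1, and the RPTOR window held none of the 4 motifs. Among 34788 windows of the same length, 42.6% held a GC box. CACGTG was found once in the TSC2 window and in none of the other 3, against 6.31% of all windows, and CCGGAAG once in the TSC2 window, against 8.5%. The forkhead letters were in none of the 4 windows and in 2.98% of all. The GC content was 63.2% for RHEB, 83.2% for AKT1, 71.6% for TSC2 and 47.2% for RPTOR, with a median of 58.0% over all windows. The 3 genes that read lower without overlap thus had no motif of these 4 in common in the printed windows, since the RPTOR window held none. Other starts give other counts. The second AKT1 window held 1 GC box at 57.2% GC, and the second TSC2 window held 1 GC box, 2 CCGGAAG and no CACGTG. Members whose groups overlapped also held GC boxes in windows of this length: 1 for MTOR, 2 for TSC1, 4 for RICTOR and 5 for PIK3R1 (outermost start). Shared regulation of the 4 printed genes was not tested.

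RHEB encodes the GTPase that binds and activates mTOR complex 1. It read 5.63, 5.73 and 6.11 on Klotho-treated arrays 1 to 3, against 5.26, 5.20 and 5.53 on control arrays 1 to 3 (log2 signal). The lowest treated array thus lay above the highest control array, by less than the spread within either group. The means were 5.82 ± 0.26 in Klotho-treated and 5.33 ± 0.18 in control cells (SD, n = 3 each), a difference of 0.49 (95% interval 0.11 to 0.87), or 1.40-fold with an interval of 1.08 to 1.82. The unadjusted limma p was 0.0187 and the adjusted p was 0.998. RHEB varied more between arrays of a group than most genes did: its pooled SD of 0.22 was larger than that of 87.1% of genes. Its difference was exceeded upward by 48 of 14232 genes, and 81 genes had a smaller p. Its signal was dim, with 32.9% of genes dimmer, and RefSeq names 3 pseudogenes of RHEB, RHEBP1, RHEBP2 and RHEBP3, none with a probe set of its own here, so a share of the signal from such copies was not tested. The difference was 0.34 without Klotho-treated array 3 and 0.59 without control array 3, and its 95% interval reached below 0 without control array 1 (-0.02 to 0.92) or without control array 2 (-0.03 to 0.88).

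**Figure D1:**
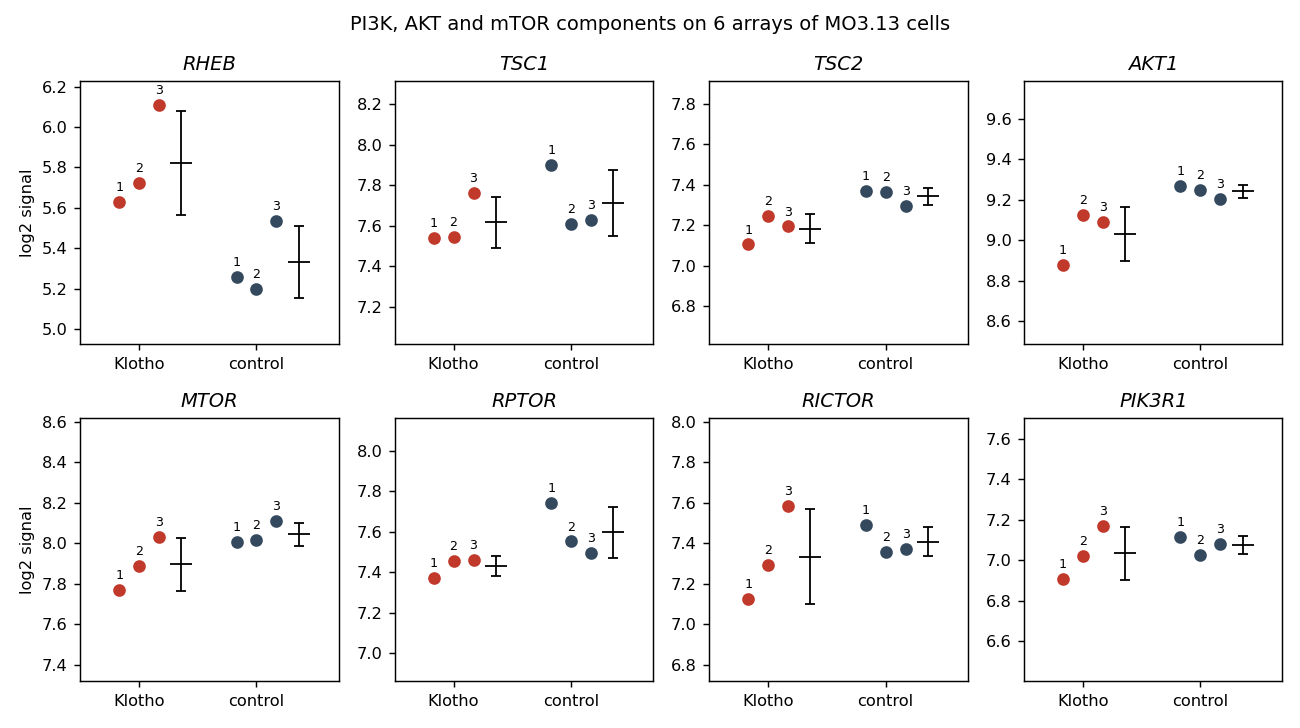
Log2 signal (vertical axis, the same span in every panel) of the 8 measured components on 3 Klotho-treated arrays (red, left) and 3 control arrays (dark, right), with the replicate number above each point and the group mean ± SD as a black bar beside the points. RHEB reads 5.63 to 6.11 in Klotho-treated and 5.20 to 5.53 in control cells, whereas AKT1, TSC2 and RPTOR lie lower on all treated arrays than on all control arrays.

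TSC1 and TSC2 encode hamartin and tuberin, the partners whose complex switches RHEB off through the GTPase-activating domain of tuberin. TSC2 read 7.10, 7.25 and 7.19 on Klotho-treated arrays 1 to 3, against 7.37, 7.36 and 7.29 on control arrays 1 to 3. The groups did not overlap, but the gap between them was narrow. The means were 7.18 ± 0.07 in Klotho-treated and 7.34 ± 0.04 in control cells (SD, n = 3 each), a difference of -0.16 (95% interval -0.35 to 0.03; limma adjusted p = 0.998). TSC2 had the smallest spread of the 8 genes, with a pooled SD of 0.06, larger than that of 8.52% of genes. A second probe set pairs TSC2 with the neighbouring DNA repair gene NTHL1 and read 6.86, 6.83 and 7.11 on the treated arrays, against 7.08, 6.74 and 7.12 on the control arrays. There the groups overlapped, with a difference of -0.05 (95% interval -0.37 to 0.28).

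TSC1 read 7.54, 7.55 and 7.76 on Klotho-treated arrays 1 to 3, against 7.90, 7.61 and 7.63 on control arrays 1 to 3. Treated array 3 lay above control arrays 2 and 3, so the groups overlapped. The means were 7.62 ± 0.13 in Klotho-treated and 7.71 ± 0.16 in control cells (SD, n = 3 each), a difference of -0.10 (95% interval -0.38 to 0.18). Control array 1 carried that difference, which was -0.003 without it.

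AKT1 encodes the kinase that PI3K recruits and that phosphorylates TSC2. It read 8.88, 9.12 and 9.09 on Klotho-treated arrays 1 to 3, against 9.27, 9.25 and 9.20 on control arrays 1 to 3. All treated values were lower than all control values, and treated array 1 was the lowest. The means were 9.03 ± 0.13 in Klotho-treated and 9.24 ± 0.03 in control cells (SD, n = 3 each), a difference of -0.21 (95% interval -0.43 to 0.01), or 0.865-fold. Its unadjusted limma p was 0.0615 and its adjusted p 0.998. Without treated array 1 the difference was -0.13. Its signal was bright, with 89.3% of genes dimmer.

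PIK3R1 encodes p85-alpha, the regulatory subunit that docks the p110 catalytic subunits on activated receptors. It read 6.91, 7.02 and 7.17 on Klotho-treated arrays 1 to 3, against 7.12, 7.03 and 7.08 on control arrays 1 to 3. The treated values spanned those of the controls on both sides. The means were 7.03 ± 0.13 in Klotho-treated and 7.08 ± 0.05 in control cells (SD, n = 3 each), and the difference of -0.04 (95% interval -0.27 to 0.18) was above 0 under each of 3 other scalings of the arrays, at 0.01 to 0.02.

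MTOR encodes the kinase shared by both mTOR complexes. It read 7.77, 7.89 and 8.03 on Klotho-treated arrays 1 to 3, against 8.01, 8.01 and 8.11 on control arrays 1 to 3. Only treated array 3 reached the range of the controls. The means were 7.90 ± 0.13 in Klotho-treated and 8.04 ± 0.06 in control cells (SD, n = 3 each), a difference of -0.15 (95% interval -0.37 to 0.08; limma adjusted p = 0.998), or -0.08 without treated array 1.

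RPTOR encodes raptor, which brings substrates to mTOR in complex 1. It read 7.37, 7.45 and 7.46 on Klotho-treated arrays 1 to 3, against 7.74, 7.55 and 7.50 on control arrays 1 to 3. The groups did not overlap, although treated array 3 and control array 3 nearly met. The means were 7.43 ± 0.05 in Klotho-treated and 7.60 ± 0.13 in control cells (SD, n = 3 each), a difference of -0.17 (95% interval -0.39 to 0.06). Without control array 1 it was -0.09.

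RICTOR encodes the defining subunit of complex 2, the kinase complex that phosphorylates AKT, and is itself known as a gene that FOXO factors induce. It read 7.12, 7.29 and 7.59 on Klotho-treated arrays 1 to 3, against 7.49, 7.36 and 7.37 on control arrays 1 to 3. The treated arrays held both the lowest and the highest of the 6 values. The means were 7.33 ± 0.23 in Klotho-treated and 7.41 ± 0.07 in control cells (SD, n = 3 each), a difference of -0.07 (95% interval -0.39 to 0.24) that was 0.03 without treated array 1 and -0.20 without treated array 3.

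**Figure D2:**
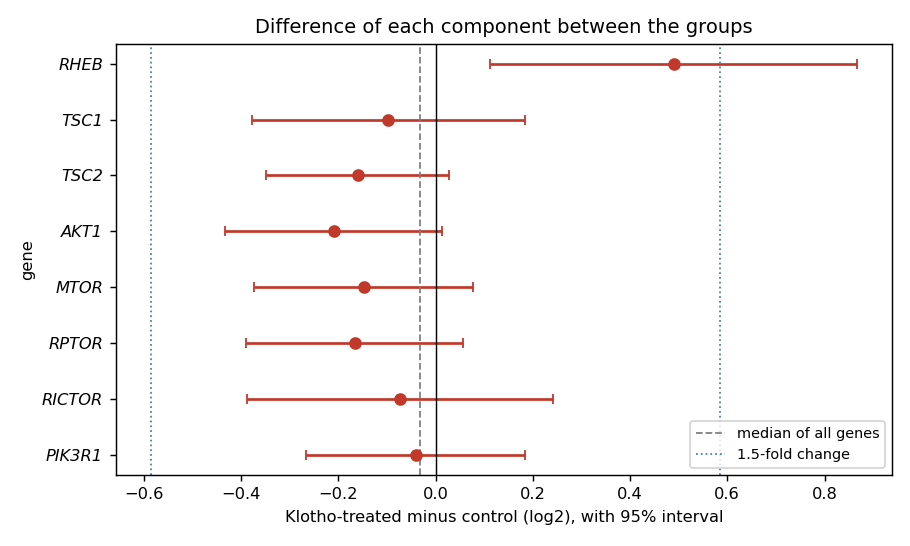
Difference between the means of Klotho-treated and control cells (horizontal axis, log2) for each of the 8 components, with the 95% interval of the limma fit as a bar. The dashed line is the median of all genes (-0.03) and the dotted lines mark a 1.5-fold change. RHEB lies at 0.49 and the other 7 genes lie between -0.21 and -0.04, with intervals inside a 1.5-fold change.

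The 95% intervals bound these differences only as far as the spread among these samples goes. For 7 of the 8 genes, all but RHEB, the interval held no change of 1.5-fold or more, up or down. The same was true of 13053 of all 14232 genes. For all 8 it held none of 2-fold, as for 14047 of the 14232, so the components did not stand out in this. For AKT1 the interval of the fold ran from 0.741 to 1.01 and for MTOR from 0.772 to 1.06.

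The common downward lean has to be read beside the arrays as a whole. Of the 8 genes, 4 had no overlap between the groups, against 7.89% of all genes; 1 was higher, against 2.59%, and 3 were lower, against 5.3%. Means were lower in treated cells for 7 of the 8 genes, against 62.6% of all genes, with a median difference of -0.12 for the 8 genes and -0.03 for all genes. With each array centred on its median, with quantile normalization or with cyclic loess, 6 of the 8 genes, all but RHEB and PIK3R1, were lower. Of all 14232 genes 6082, 6655 and 7163 were lower, in that order. Medians were -0.07, -0.06 and -0.06 for the 8 genes and 0.0178, 0.0065 and -0.0007 for all genes. The groups did not overlap for 2 of the 8 each time, RHEB and AKT1, against 7.01%, 6.16% and 6.65% of all genes. The non-overlap of TSC2 and RPTOR therefore depended on the scaling as deposited, and that of RHEB and AKT1 did not depend on it under the scalings tried.

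Individual arrays also moved several members at once. Klotho-treated array 1 was the lowest treated array for all 8 genes, against 43.5% of all genes, and treated array 3 the highest for 6 of them, against 43.0%. Control array 1 was the highest control array for 6 of the 8, against 45.8%. Without treated array 3 no overlap was left between the groups for any of the 8 genes, against 24.3% of all genes with that array left out. The part of such array-wide shifts in the differences above was not tested. Of 11 measured muscle markers 8 were lower in treated cells, against 62.6% of all genes. Under median centring, quantile normalization and cyclic loess 7 were lower each time, against 6082, 6655 and 7163 of all 14232 genes. The groups did not overlap for 2 of the 11, against 7.89% of all genes. These were the intermediate filament gene DES (-0.27) and the cadherin gene CDH15 (-0.16), named after their values were seen. Under the 3 other scalings the counts without overlap were 1, 0 and 0, against 7.01%, 6.16% and 6.65% of all genes. The part of the muscle markers in the lean of the 8 genes was not tested.

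The difference between RHEB and the mean of the other 7 genes on the same array is free of a shift equal for all genes of an array. It is not free of a shift that depends on signal level, and RHEB was the dimmest of the 8. It was -1.90, -1.93 and -1.65 on Klotho-treated arrays 1 to 3, against -2.58, -2.54 and -2.21 on control arrays 1 to 3 (log2). Its size between genes has no meaning on probe signals. All 3 treated arrays lay above all 3 control arrays. The means were -1.82 ± 0.16 in Klotho-treated and -2.44 ± 0.20 in control cells (SD, n = 3 each), 0.62 apart. The mean of the other 7 genes alone was 7.65 ± 0.11 in Klotho-treated and 7.77 ± 0.06 in control cells. The 0.62 combines the differences already given, 0.49 for RHEB and -0.13 for the mean of the other 7, and adds no further support. Since RHEB was singled out after its values were known, no test is given.

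**Figure D3:**
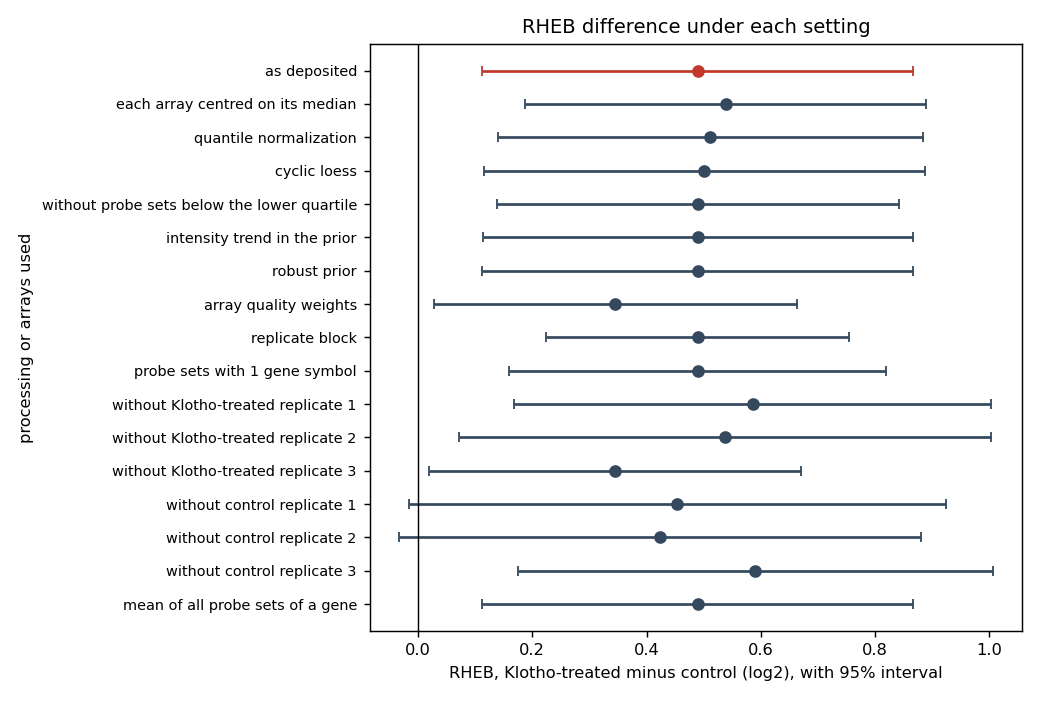
Difference of RHEB between Klotho-treated and control cells (horizontal axis, log2, with 95% interval) with the values as deposited (top, red) and under each alternative processing or set of arrays (dark). The difference lies between 0.34 and 0.59 throughout, and the interval crosses 0 without control array 1 or without control array 2.

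Across the 6 arrays the other members tended to move with each other and not with RHEB, as a description of arrays that share both group and array-wide shifts. Pearson's r among those members ran from 0.44 (TSC2 and PIK3R1) to 0.98 (RICTOR and PIK3R1). It was 0.97 between TSC2 and AKT1, 0.80 between MTOR and AKT1 and 0.46 between TSC1 and TSC2. With RHEB it was -0.71 for TSC2, -0.62 for RPTOR, -0.53 for AKT1, -0.13 for MTOR, -0.10 for TSC1, 0.22 for RICTOR and 0.26 for PIK3R1. Among 11308 other genes at or above the lower quartile of signal, those most like RHEB over the 6 arrays were HADHA (r = 0.98), BOD1L2 (r = 0.98) and SYT8 (r = 0.97), and those most opposed were FOS (r = -0.98), SOX14 (r = -0.97) and SEMA4A (r = -0.97). FOS, an early response transcription factor gene, read 5.93, 5.86 and 5.67 on Klotho-treated arrays 1 to 3, against 6.05, 6.07 and 5.99 on control arrays 1 to 3. These genes were picked as the extremes of many, so their likeness is a description only.

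The rest of the pathway was described by 11 lists of partners, regulators and targets, of which 102 of 126 genes were measured. None of the 102 passed the adjusted threshold (limma) and 0 had an unadjusted p under 0.05, against 2.07% of all genes. The groups did not overlap for 10 of them (9.8%), near the 7.89% of all genes. The median difference was -0.05, with 70 genes lower and 32 higher as deposited, against 62.6% of all genes lower. With median centring, quantile normalization and cyclic loess 47, 45 and 54 were lower, against 6082, 6655 and 7163 of all 14232 genes. The medians of the 102 genes there lay between -0.001 and 0.01.

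Among the kinases and phosphatases of the membrane lipid, the differences were small. The 7 PI3K catalytic genes split into 4 higher and 3 lower, with PIK3CG, the gamma catalytic subunit of blood cells, at 0.10 on a dim probe set and PIK3C3, the class III kinase of autophagy, at -0.13 (95% interval -0.58 to 0.32), or 0.03 without Klotho-treated array 1 and 0.002 without control array 1. PIK3CB, the beta catalytic subunit, differed by -0.09 (95% interval -0.41 to 0.24), or 0.01 without Klotho-treated array 1. Of 4 regulatory genes 2 were higher and 2 lower, with PIK3R4, the partner of PIK3C3, at -0.17, or -0.11 without Klotho-treated array 1, and PIK3IP1, an inhibitor of PI3K, at 0.12 on a dim probe set, or 0.04 without control array 2. Of 7 phosphatase genes, which oppose PI3K or AKT, 6 were lower as deposited, or 5 under each of the 3 other scalings. The groups did not overlap for 3 of them as deposited, INPP5D (-0.13) and INPPL1 (-0.12), which encode the SHIP phosphatases, and INPP5E (-0.09), against 7.89% of all genes, but for 0 with median centring, 0 with quantile normalization and 1 with cyclic loess. PIK3R2 and PDPK1 were not analysed here.

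AKT2, the AKT paralog of insulin-responsive tissues, read 7.61, 7.65 and 7.69 on Klotho-treated arrays 1 to 3, against 7.80, 7.75 and 7.77 on control arrays 1 to 3. The groups did not overlap, with a difference of -0.12 (95% interval -0.29 to 0.05), but they did with quantile normalization or cyclic loess, where the difference was -0.06 in each case. RHEBL1, the closest paralog of RHEB, read 4.92, 4.73 and 5.08 on the treated arrays, against 4.97, 4.85 and 5.0 on the control arrays. It did not share the pattern of RHEB: the groups overlapped and the difference was -0.03 (95% interval -0.30 to 0.24), although the difference between the paralogs was not tested. Of 8 other genes of the mTOR and TSC complexes and their chaperones 7 were lower, with the complex subunit MLST8 at -0.08, the complex 2 subunit PRR5L at -0.11 and TTI1, which helps assemble mTOR complexes, at -0.13. Under the 3 other scalings 5 to 7 of the 8 were lower. Leaving out each array in turn gave -0.11 to -0.05 for MLST8, -0.15 to -0.07 for PRR5L and -0.21 to -0.03 for TTI1, the last without control array 1.

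The inputs from nutrients and energy gave similar values. Of 8 measured Rag GTPase and Ragulator genes, which place mTOR complex 1 on the lysosome, 6 were lower as deposited, or 3 to 4 under the 3 other scalings. RRAGB differed by -0.30 (95% interval -0.74 to 0.13), but control array 1 read 6.93 while the other controls read 6.28 and 6.36 and the treated arrays 6.11 to 6.30, and without that array the difference was -0.10. LAMTOR5, a Ragulator subunit, read 6.92, 6.97 and 7.08 on the treated arrays, against 6.85, 6.68 and 6.92 on the control arrays, a difference of 0.17 (95% interval -0.06 to 0.40), or 0.11 without control array 2. Of 14 genes of GATOR, KICSTOR and the amino acid sensors 9 were lower, or 5 to 8 under the 3 other scalings, with NPRL3, a subunit of the inhibitory GATOR complex, at -0.17 and KICS2 at -0.19, or -0.02 without control array 1. Of 11 energy and stress genes 7 were lower as deposited, against 62.6% of all genes, or 3 to 5 under the 3 other scalings. The groups did not overlap for 2 of the 11, against 7.89% of all genes. Under the other scalings that count was 0 to 2, against 6.16% to 7.01%. PRKAB2, a subunit of the energy sensor AMPK, differed by -0.18 without overlap, or -0.10 without Klotho-treated array 1, STK11, the kinase that activates AMPK, by -0.09 without overlap, and DDIT4L, a stress-induced inhibitor of mTOR complex 1, by 0.18.

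Downstream genes were near 0 in median. Of 21 measured substrates and effectors 13 were lower and 8 higher (median -0.03, and 0.02 under each of the 3 other scalings, with 7 to 9 lower), with RPS6KB1, the S6 kinase that complex 1 activates, at -0.11 (95% interval -0.48 to 0.26), or 0.05 without control array 1. EIF4EBP2, a translation inhibitor that complex 1 inactivates, differed by 0.01 (95% interval -0.33 to 0.34), MAF1, a repressor of RNA polymerase III, by -0.17, or -0.04 without control array 3, and ULK2, a kinase that starts autophagy, by 0.11 on a dim probe set. Of 12 genes that FOXO factors are known to induce when AKT is inactive 8 were lower and 4 higher, or 5 to 6 lower under the 3 other scalings, with ERBB3, a receptor of the EGF family, at -0.16 without overlap and TRIB1 at -0.18. Without control array 1 those were -0.09 and -0.08. Of 11 genes of the amino acid response that mTOR complex 1 drives through ATF4, 9 were lower, or 4 to 6 under the 3 other scalings. In that list ASNS, asparagine synthetase, read 9.14, 9.22 and 9.12 on the treated arrays, against 8.89, 9.02 and 9.11 on the control arrays, a difference of 0.15, whereas PSAT1, an enzyme of serine synthesis, read 10.79, 10.83 and 10.89 on the treated arrays, against 11.16, 10.89 and 10.94 on the control arrays, a difference of -0.16. Without control array 1 the difference was 0.10 for ASNS and -0.08 for PSAT1, and neither passed the test.

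**Figure D4:**
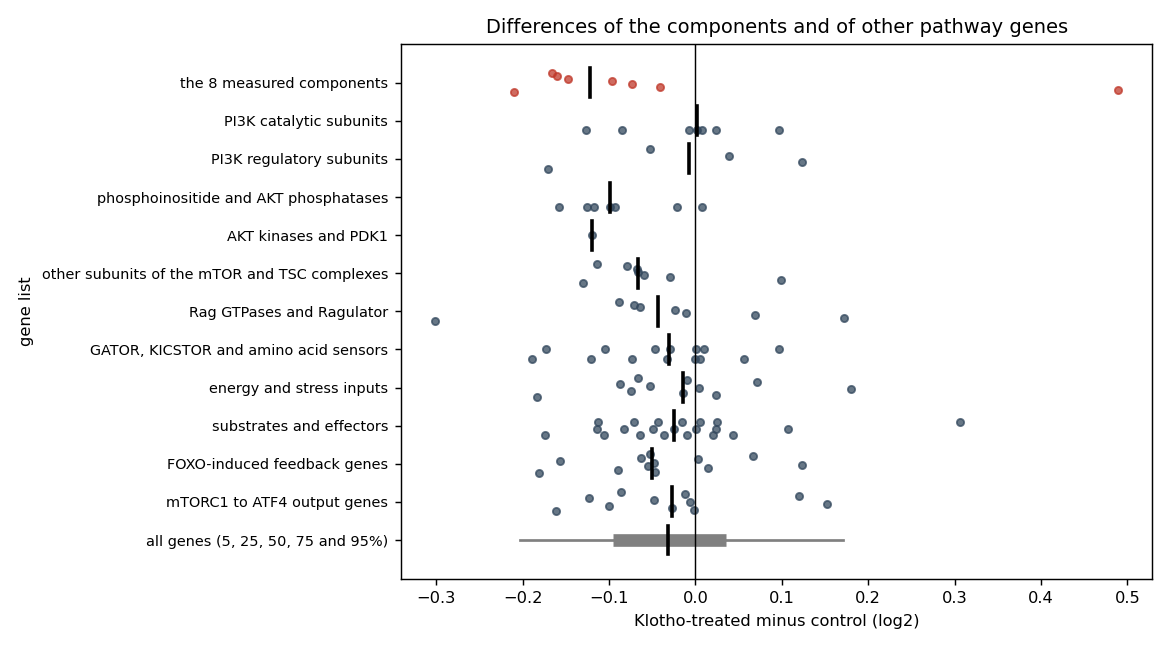
Difference between Klotho-treated and control cells (horizontal axis, log2) of each measured gene (points) in the 8 components (top, red) and in 11 lists of other pathway genes (dark), with list medians as black bars; in the bottom row the thin and thick grey bars span the 5th to 95th and 25th to 75th percentiles of all genes. List medians lie between -0.12 and 0.002, and RHEB at 0.49 stands to the right of all other points.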

How the data were processed

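Transcript levels were measured on 6 exon arrays of MO3.13 cells, grouped by sample title. Per the labels' protocols, 100 ng of total RNA was amplified and labelled with biotin. The authors deposited 1 table of log2 values, 1 per probe set and array, made with RMA per the submitters' processing notes. The sources used here give no RMA version, software or filter of probe sets; no intensities, detection calls or scan dates were used. Of 22011 probe sets, 14432 had 1 gene symbol, 2408 several and 5171 none; 14404 single symbols matched RefSeq (GRCh38.p14) by Entrez number and 0 needed updating. Control probe sets among those without a symbol could not be marked, so all were tested.

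Differences were fitted with R 4.3.3 and limma 3.58.1 (moderated linear models, 2-sided, Benjamini-Hochberg over all probe sets, threshold 0.05). The fit was also run on simulated independent values with planted changes and no array-wide shifts. No result of that run is used for the differences reported here. The members and lists were chosen with earlier results of these data known. Named genes are the members, the 2 of smallest p in each list, 10 partners or paralogs (those measured), the 2 brightest markers of each cell type, and 3 genes each way most correlated with RHEB; INPP5E, STK11, MOG, UGT8, OPALIN, MYF5, DES and CDH15 were added after their values were seen. Array number limits the precision.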

Additional observations from a re-analysis of the deposited data

How the results depend on the processing

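A total of 17 alternatives were run: 3 scalings, 2 filters on signal, 2 variance models, array weights, a replicate block, other uses of the probe sets and leaving out each array. Under all of them 0 probe sets and 0 of the 8 genes passed the adjusted threshold in limma, and RHEB, MTOR, RPTOR, TSC1, TSC2 and AKT1 kept their direction; RHEB was left out by the filter at the median signal. PIK3R1 changed sign under 4 alternatives and RICTOR under 1, neither past an unadjusted p under 0.05. Over 34 pathway genes, the 8 included, 549 of 565 differences kept their direction and 16 changed it, none of them past a threshold. Of the 8 genes, 5 to 7 had lower means. Their count without overlap was 2 with median centring, quantile normalization or cyclic loess, against 7.01%, 6.16% and 6.65% of all genes. That count ranged from 4 to 8 over the arrays left out. It was 8 without Klotho-treated array 3, where 24.3% of all genes did not overlap, against 7.89% with all arrays. Other pathway genes with lower means numbered 45 with quantile normalization and 70 as deposited, and 53 to 81 over the arrays left out. Probe sets at an unadjusted limma p under 0.05 numbered 703 of 22011 as deposited and 447 of the 14432 with 1 symbol. There were 436 without those below the lower quartile and 228 without those below the median, filters that leave fewer probe sets to count. With array weights there were 1644. Over the arrays left out there were 577 to 1200, the highest without Klotho-treated array 3. Same-numbered arrays of the groups did not deviate together (r = -0.18 to 0.06), so the numbers do not pair them; with the replicate block 662 probe sets had an unadjusted p under 0.05, 0 passed, and RHEB differed by 0.49 (unadjusted limma p = 0.00572). RHEB had the lowest mean signal of the 8 genes.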
